A study of Mus musculus with 6 samples.

Results

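The genes described here write, remove or read DNA methylation: *Dnmt1*, *Dnmt3a*, *Dnmt3b* and *Uhrf1* on the writing side, *Tet1*, *Tet2* and *Tet3* on the removing side, and *Mbd1* and *Mbd2* among the readers. They were taken by name, as every probe set of the array annotated to exactly 1 gene symbol that is one of these 9. This gave 26 probe sets for 9 genes, of 34945 probe sets and 18193 genes with such an annotation. *Dnmt3a* and *Mbd1* had 5 probe sets each, *Tet1* had 4, *Dnmt1* had 3, *Tet3* had 1, and the other genes had 2 each.

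The arrays measured RNA of corticothalamic projection neurons sorted from C57BL/6 mice, the deep-layer cortical neurons whose axons end in the thalamus. Green fluorescent microspheres were injected into the thalamus, travelled back along the axons, and marked the neurons for cell sorting. At E18 the injection was at E17.5 and the cortex was collected at E18.5. The P3 group was injected on postnatal day 1 and collected on day 3, and the P6 group was injected on day 4 and collected on day 6. Each stage had 2 arrays. All groups were wild type, no group was an unlabelled or unsorted control, and no label ties an array to its own animal or sort. The p-values therefore rest on differences between arrays alone, which may be technical. The time from injection to collection was shorter at E18 than at P3 and P6, and cannot be told apart from stage. The comparisons ask how these genes differ as the neurons pass from late gestation through the first postnatal week.

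Methyl groups are added to cytosine, mostly in CG pairs. DNMT3A and DNMT3B add them to unmethylated DNA, while DNMT1 copies them onto the new strand after replication, brought there by UHRF1, which recognises hemimethylated CG. The TET enzymes oxidise the methyl group on the way to its removal, and proteins with a methyl-CpG-binding domain, such as MBD1 and MBD2, recruit repressor complexes. In the brain, neurons are known for a second wave of DNMT3A-dependent methylation after birth and for abundant oxidised methylcytosine.

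The sequences upstream of these genes' start sites are shown first, because the maintenance genes, *Uhrf1* and *Dnmt1*, share a short match there while their array values moved differently. Windows of 250 bases before RefSeq start sites on GRCm38.p6 were used for 7 of the 9 genes, 12 windows in all. For the members, 1 chromosome was left out by choice, which the count over all windows did not leave out. *Mbd1* and *Mbd2* had no window once that chromosome was left out, so matches upstream of them were not examined. Each window was searched on both strands for the E2F core, a motif of replication genes, in 4 forms. They were TTCCCGC as the first form, then TTCGCGC as the next, TTGCCGC as another and TTGGCGC as the last. A match was found in 3 of the 12 windows, both of *Uhrf1* and 1 of *Dnmt1*, against 7.89% of all 32817 windows of the same length. Each form holds a CG pair, and most of the 12 windows hold more CG pairs than the median window. Some windows of the same gene also overlap. The part of CG content in the number of matches was not tested. Matches are descriptions of letters and not sites of binding. The stretches of 30 bases around each match, 5′ to 3′ along the gene's strand and with the match in capitals, were at chr17:56303278-56303307 and chr17:56304118-56304147 (plus strand) and at chr9:20952824-20952853 and chr9:20952763-20952792 (minus strand). They begin their match at -48 and -184 from the 2 starts of *Uhrf1*, and at -219 and -158 from 1 start of *Dnmt1*. Both *Dnmt1* matches lie downstream of another of its starts, whose window is chr9:20952980-20953229. The *Uhrf1* match at -184 also lies downstream of the other *Uhrf1* start.
Uhrf1 at -48: tgctttctcgcTTCCCGCcacagcgccagc
Uhrf1 at -184: ccgagtcgggtTTCGCGCgcccaggcgtct
Dnmt1 at -219: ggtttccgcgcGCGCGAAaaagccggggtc
Dnmt1 at -158: gcaagatgccaGCGCGAAcagctccagccc

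The whole windows of *Uhrf1* (chr17:56303087-56303336, plus strand) and *Tet3* (chr6:83441679-83441928, minus strand) are set side by side because these genes moved in opposite directions between E18 and P3. The capitals again mark the E2F core, which *Tet3* lacks in this window. This *Uhrf1* window holds 10 CG pairs and the *Tet3* window 17, against a median of 6 over all windows. The other *Uhrf1* window, not printed in full, holds 30, so the order of the genes depends on the window. Among the 7 genes with a window, *Tet2* had the most CG pairs, 51.
Uhrf1 window: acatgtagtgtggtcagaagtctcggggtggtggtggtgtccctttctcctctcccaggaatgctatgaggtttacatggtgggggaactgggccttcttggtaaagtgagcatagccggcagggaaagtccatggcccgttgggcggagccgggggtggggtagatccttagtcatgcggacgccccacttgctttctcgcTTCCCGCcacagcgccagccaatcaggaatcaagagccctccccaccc
Tet3 window: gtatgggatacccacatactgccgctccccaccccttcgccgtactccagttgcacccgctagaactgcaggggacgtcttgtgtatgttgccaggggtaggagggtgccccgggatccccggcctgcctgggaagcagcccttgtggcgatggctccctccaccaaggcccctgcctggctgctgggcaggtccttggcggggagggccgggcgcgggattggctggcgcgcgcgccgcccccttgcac

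Each probe set has a log2 expression value, so 1 unit is a 2-fold difference. They are relative, and a value of 1 probe set says nothing against that of another. Each gene was represented by its brightest probe set, and a gene was called where limma's adjusted p, over all 13645 genes tested, was below 0.05. All 9 genes passed the filter that left out the dimmest 25% of genes. *Uhrf1* did so with a mean carried by E18. Errors after ± are standard errors of the fit unless named as SD, and each stage mean has n = 2.

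Several facts of the arrays bear on every comparison with E18. The E18 arrays agreed far more closely than the others, with an SD of their differences of 0.13 log2 units against 0.57 at P3 and 0.46 at P6. On most of the markers below, though not all, the E18 arrays fit the label of purified corticothalamic neurons less well than the others. Of 6 general neuron markers, 5 were called higher at P3 than at E18, and *Map2* was not called. All 9 of 9 corticothalamic and layer 6 markers were lower at E18 than at P3, with a summed signal of 3491 and 3679 on the E18 arrays against 13031 to 21439 later, and *Ntsr1* stood at 7.32 and 7.41 at E18 against 9.39 to 10.89 later. Markers of dividing cells were lower at P3 for 12 of 12 genes tested. Of those left out as dim, *Bub1* had a mean of 9.29 at E18 and 4.21 at P3, and *Tyms* of 5.76 and 5.57. The summed signal of 14 measured markers was 48253 and 49903 at E18 against 2011 to 2640 later. The summed signal of 12 radial glia and progenitor markers was 39830 and 39928 at E18 against 1661 to 2524 later. At P3, 10 of them were called lower and 2, *Pax6* and *Nes*, were not called. The progenitor gene *Sox2* stood at 12.12 and 12.07 at E18 and between 4.66 and 6.32 afterwards. The defining proliferation gene *Mki67* stood at 12.80 and 13.01 at E18 and between 6.61 and 7.14 afterwards. The summed signal of 8 astrocyte markers was 19148 and 19374 at E18 against 1284 to 5889 later. At P3, 5 of them were called lower, and *Aqp4*, *Gfap* and *Slc1a2* were not called. The summed signal of 8 microglia and macrophage markers was 6795 and 6762 at E18. It was 1044 and 2255 at P3 and then 1675 and 5657 at P6. At P3, 5 of the 7 tested were called lower. Fewer cells of a type and less RNA per cell cannot be told apart in such bulk RNA, and the part of these cell types in the results below was not tested. The difference between P3 and P6 is the one that does not use the E18 values. Its standard error and p still do, because all 6 arrays share 1 estimate of spread. For *Dnmt1* this standard error was 0.27, against 0.39 with only the stages compared. Signal of 18S ribosomal RNA was high on P3 replicate 2 (14.22) and P6 replicate 1 (13.92), against at most 11.83 elsewhere. The mean level of the hybridization control probe sets was 9.59 and 9.25 at E18 and 11.72 and 11.59 at P3. At P6 it was 13.01 and 9.85. Between E18 and P3 this level cannot be told apart from stage. The 3′ minus 5′ difference of the *Actb* control probes, a sign of RNA quality, was 0.56 and 0.58 at E18 against 0.82 to 1.76 later, and that of *Gapdh* was 1.44 and 1.48 against 1.68 to 2.55. The part of RNA quality, 18S signal and control level in the results was not tested beyond the 18S and control level covariates.

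Between E18 and P3, *Uhrf1* fell 8.56-fold, *Mbd1* 1.93-fold and *Dnmt3b* 1.43-fold, while *Tet1* rose 2.41-fold and *Tet3* 2.27-fold on the probe set chosen for each. *Dnmt1*, *Dnmt3a*, *Tet2* and *Mbd2* did not pass the test. The 5 of 9 genes called stand against 41.3% of all genes tested, and the 2 higher and 3 lower against 15.5% and 25.7%, so the count is near the background. With quantile normalization of the arrays the split was 3 higher and 2 lower. At an unadjusted p under 0.05 it was 6 of 9, against 52.8%. The median change of the 9 genes was -0.26 log2 units, against -0.13 over all genes. The arrays of E18 and P3 did not overlap for 8 of the 9 genes, as for 80.6% of all genes. Taken probe set by probe set, 6 of 26 were called (2 higher, 4 lower), against 28.6% of all single-symbol probe sets (11.5% higher, 17.1% lower). Arrays did not overlap for 17 of the 26 probe sets, as for 77.9% of all. Of the 8 genes with several probe sets, 3 had all of them moving one way, namely *Dnmt3b*, *Uhrf1* and *Mbd2*.

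**Figure D1:**
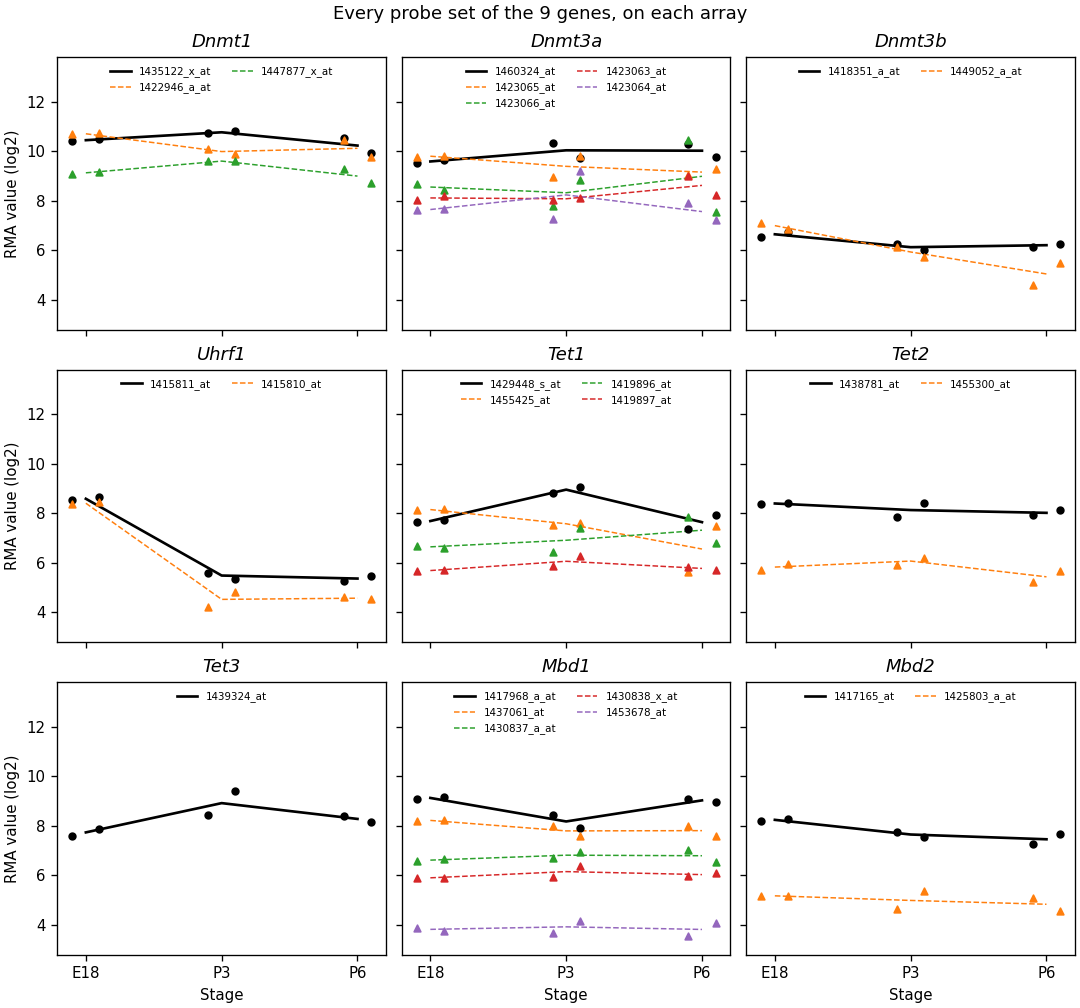
RMA values (log2, vertical axis) of every probe set of the 9 genes by stage (horizontal axis), 1 point per array. Black points and solid lines through the stage means are the brightest probe set of each gene, and coloured triangles with dashed lines are its others. *Uhrf1* drops from between 8.36 and 8.65 at E18 to between 4.23 and 5.61 at P3, while the probe sets of *Dnmt1* and *Tet1* cross.

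*Uhrf1*, which guides maintenance methylation to newly replicated DNA, had the largest change. Its probe set 1415811_at read 8.52 and 8.65 on the E18 arrays, 5.61 and 5.37 at P3, and 5.26 and 5.48 at P6. Its other probe set, 1415810_at, read 8.36 and 8.45, then 4.23 and 4.83, then 4.63 and 4.52. Both E18 arrays were high, all 4 postnatal arrays were low, and the groups did not overlap on either probe set. The change from E18 to P3 was -3.10 ± 0.18 log2 units (limma adjusted p = 3e-05) on the first and -3.88 ± 0.22 (adjusted p = 8.88e-05 over all probe sets) on the second. From E18 to P6 it was -3.22 ± 0.18 (adjusted p = 2.73e-05), a 9.31-fold fall. Postnatal values lay near the lower quartile of all probe sets on those arrays, which was 5.20 on P6 replicate 2. Between P3 and P6 it differed by -0.12, with a 95% interval from -0.54 to 0.30. The call against E18 held in all 17 alternatives tried for each postnatal stage, with changes from -3.49 to -2.94 at P3.

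*Dnmt1*, the maintenance methyltransferase that UHRF1 serves, did not follow it. Its brightest probe set, 1435122_x_at, read 10.41 and 10.47 at E18, against 10.72 and 10.80 at P3 and then 10.54 and 9.91 at P6. Both P3 arrays were above both E18 arrays, but the difference of 0.32 ± 0.27 did not pass the test (limma adjusted p = 0.361, 95% interval -0.32 to 0.96). The probe set 1422946_a_at read 10.67 and 10.73, then 10.09 and 9.88, then 10.45 and 9.78, a difference of -0.72 ± 0.28 from E18 to P3 (adjusted p = 0.0969 over all probe sets). Its remaining probe set, 1447877_x_at, differed by 0.47 ± 0.26. The ending _x_at marks probes that can match other transcripts, and the probe set without it was the one with the lower P3 values. The sign of the *Dnmt1* difference therefore hung on the probe set, and 0 of its 3 probe sets passed the test in any comparison between stages. Within each array, the *Uhrf1* value minus the *Dnmt1* value was -1.90 and -1.82 at E18, against -5.11 and -5.44 at P3 and then -5.28 and -4.44 at P6. This difference removes any shift of a whole array, and its E18 values stood apart from all 4 later ones.

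The de novo methyltransferase gene *Dnmt3b* was dim throughout, with values between 6.01 and 6.74 on its brightest probe set. That probe set, 1418351_a_at, read 6.55 and 6.74 at E18, against 6.24 and 6.01 at P3 and then 6.16 and 6.26 at P6. The E18 arrays were above all later ones, and the change to P3 was -0.52 ± 0.17 (limma adjusted p = 0.0436). In the fit of all probe sets this same change was not called (adjusted p = 0.0735). At P6 this probe set differed from E18 by -0.44 ± 0.17 and was not called (adjusted p = 0.088). Its other probe set, 1449052_a_at, read 7.12 and 6.87, then 6.12 and 5.75, then 4.60 and 5.50. It changed by -1.06 ± 0.31 to P3 (adjusted p = 0.045 over all probe sets) and by -1.95 ± 0.31 to P6 (adjusted p = 0.00552). The call at P3 held in 4 of 17 alternatives. Limma's adjusted p was 0.164 and 0.336 without E18 replicate 1 or 2, 0.109 without P3 replicate 2, 0.053 and 0.0534 without P6 replicate 1 or 2, and 0.0508 with no filter on dim genes.

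*Dnmt3a*, the de novo methyltransferase that predominates in neurons, showed no change that passed the test. The brightest probe set, 1460324_at, read 9.54 and 9.63 at E18, against 10.34 and 9.73 at P3 and then 10.29 and 9.75 at P6. All 4 postnatal arrays were above the E18 arrays, by a mean of 0.45 ± 0.31 at P3 (limma adjusted p = 0.265, 95% interval -0.28 to 1.18) and 0.43 ± 0.31 at P6 (adjusted p = 0.317). Its 5 probe sets ranged from -0.41 to 0.59 at P3 and from -0.64 to 0.51 at P6. Their replicates could disagree widely. The probe set 1423066_at read 10.45 and 7.53 on the P6 arrays, and 1423064_at read 7.27 and 9.20 on the P3 arrays. With quantile normalization of the arrays, *Dnmt3a* was called higher at P3 (0.90, adjusted p = 0.0206), a setting that moved the median of all genes from -0.13 to 0.09. Within each array, the *Dnmt3a* value minus the *Dnmt3b* value was 2.99 and 2.89 at E18 and between 3.49 and 4.14 on the 4 postnatal arrays, with no overlap. This difference used the brightest probe set of each gene, and its course hung on that choice. The *Dnmt3a* probe set 1423065_at changed by -0.64 from E18 to P6, further down than the -0.44 of the *Dnmt3b* probe set. Of the 5 *Dnmt3a* probe sets, 3 were higher and 2 lower at P6 than at E18. Arrays without overlap were also common, found for 80.6% of all genes between E18 and P3.

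**Figure D2:**
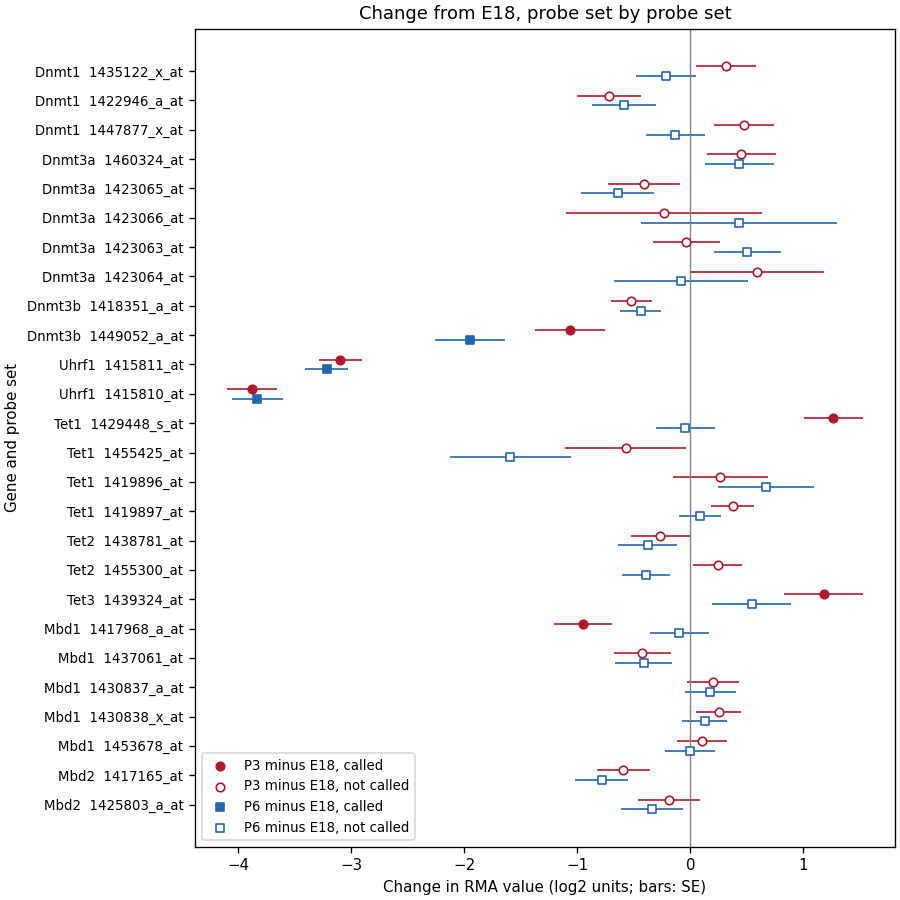
Change in RMA value from E18 (log2 units, horizontal axis) for each of the 26 probe sets (vertical axis), at P3 (red circles) and at P6 (blue squares), with bars of 1 SE. Filled symbols passed limma's test over all probe sets. Those of *Uhrf1* lie beyond -3, while those of *Dnmt1*, *Dnmt3a* and *Tet1* lie on both sides of 0 at P3.

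Among the removing enzymes, *Tet3* had 1 probe set and it was higher after birth. It read 7.60 and 7.87 at E18, against 8.42 and 9.40 at P3 and then 8.38 and 8.17 at P6. All postnatal arrays were above the E18 arrays, and P3 replicate 2, an array of high 18S signal, was the highest. The rise to P3 was 1.18 ± 0.34 (limma adjusted p = 0.0301), and the difference at P6 was 0.54 ± 0.34 (adjusted p = 0.261, 95% interval -0.26 to 1.34). Without P3 replicate 2 the P3 value was 0.69 and was not called (adjusted p = 0.0585). The call was also lost without E18 replicate 1 or 2 (0.165 and 0.0919) and without P6 replicate 1 or 2 (0.0622 and 0.0628), so it held in 9 of 18 alternatives.

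*Tet1* gave different answers on different probe sets. The brightest, 1429448_s_at, read 7.65 and 7.72 at E18, against 8.84 and 9.07 at P3 and then 7.37 and 7.92 at P6. Only its P3 arrays were high, and the rise to P3 was 1.27 ± 0.26 (limma adjusted p = 0.00804). The probe set 1455425_at read 8.13 and 8.17, then 7.54 and 7.61, then 5.63 and 7.48, so its E18 arrays were the highest, and its difference at P3 was -0.57 ± 0.54 (adjusted p = 0.425 over all probe sets). The other 2 probe sets differed by 0.27 and 0.37 at P3 and were not called. With probe sets ending in _s_at or _x_at passed over, *Tet1* stood at -0.57 (adjusted p = 0.39), and with the mean of its probe sets at 0.33 (adjusted p = 0.197). Without E18 replicate 1 or 2 the rise was not called either (adjusted p = 0.0747 and 0.0632).

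*Tet2* did not pass the test in any comparison. Its brightest probe set, 1438781_at, read 8.37 and 8.42 at E18, against 7.85 and 8.41 at P3 and then 7.92 and 8.11 at P6. Its difference from E18 was -0.26 ± 0.26 at P3 (limma adjusted p = 0.42, 95% interval -0.87 to 0.34) and -0.38 ± 0.26 at P6 (adjusted p = 0.294, 95% interval -0.98 to 0.22), so a 2-fold fall or rise lies outside the intervals. Its other probe set was dim, between 5.21 and 6.21. Within each array, *Tet2* minus *Tet1* was 0.72 and 0.69 at E18, against -0.99 and -0.66 at P3 and then 0.55 and 0.20 at P6, a course set by the chosen *Tet1* probe set. *Tet3* minus *Tet1* was -0.05 and 0.14 at E18 and 1.01 and 0.26 at P6, and its P3 values of -0.41 and 0.33 straddled those of E18.

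**Figure D3:**
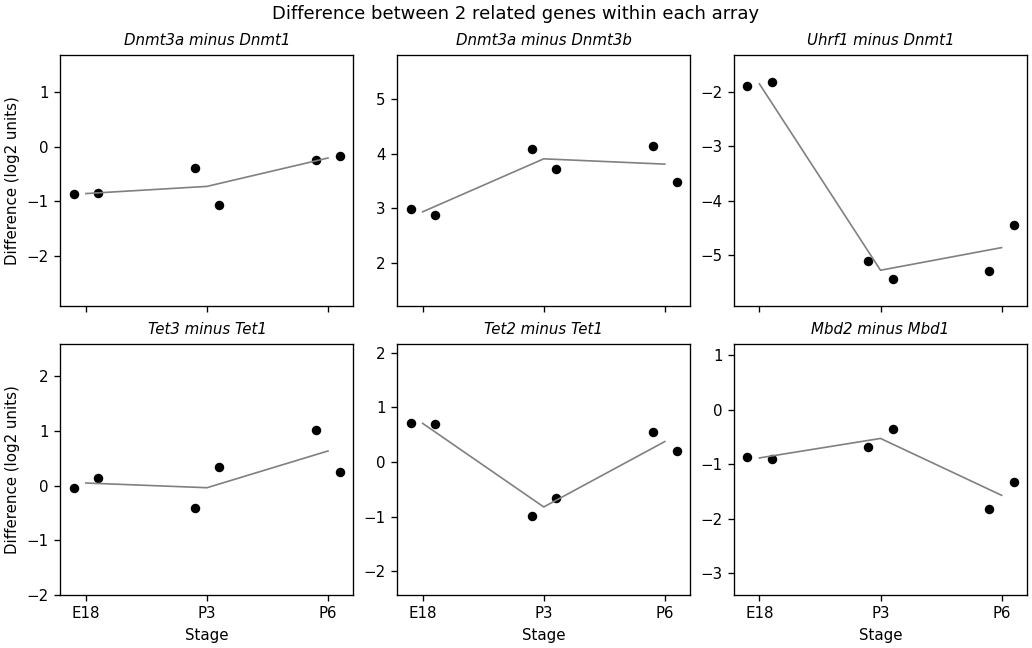
Difference in log2 value between 2 related genes (vertical axis, log2 units, every panel spanning the same range) by stage (horizontal axis), 1 point per array with a line through the stage means. Only the course over stages is informative, since levels of different probe sets are not comparable. *Uhrf1* minus *Dnmt1* drops from a mean of -1.86 at E18 to -5.28 at P3.

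In the fit of genes, each reader was called lower at 1 postnatal stage, *Mbd1* at P3 and *Mbd2* at P6. *Mbd1*, which joins methyl-CpG binding to H3K9 methylation through SETDB1, read 9.08 and 9.16 on 1417968_a_at at E18, against 8.45 and 7.90 at P3 and then 9.08 and 8.97 at P6. Only its P3 arrays were low, by -0.95 ± 0.26 from E18 (limma adjusted p = 0.0258), and P3 replicate 2 was the lowest. By P6 it differed from E18 by -0.10 ± 0.26 (adjusted p = 0.793). Its probe set 1437061_at differed by -0.42 at P3, and the remaining 3, with means of at most 6.74, by 0.10 to 0.25, none of them called. The P3 call was lost without E18 replicate 1 or 2 (adjusted p = 0.164 and 0.204), with the mean of all 5 probe sets (-0.16, adjusted p = 0.322) and with quantile normalization (-0.57, adjusted p = 0.0696).

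*Mbd2*, a methyl-CpG-binding subunit of the NuRD deacetylase and remodelling complex, was lower at P6 than at E18. Its probe set 1417165_at read 8.21 and 8.27 at E18, against 7.76 and 7.54 at P3 and then 7.26 and 7.65 at P6. All postnatal arrays were below the E18 arrays. The other probe set of *Mbd2*, 1425803_a_at, was dim and differed by -0.34 ± 0.27 at P6 (limma adjusted p = 0.409 over all probe sets). On 1417165_at the difference was -0.59 ± 0.23 at P3, where it was not called (adjusted p = 0.0701). It was -0.78 ± 0.23 at P6, where it was called (adjusted p = 0.0347), a 1.72-fold fall. In the fit of all probe sets this P6 difference was not called (adjusted p = 0.0567). Without P6 replicate 1 the P6 value was -0.59 and was not called (adjusted p = 0.125), nor was it without E18 replicate 1 or 2 (0.22 and 0.262). Without P3 replicate 1 the P3 value was -0.70 and was called (adjusted p = 0.0485).

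Between P3 and P6, 0 of 9 genes and 0 of 26 probe sets were called by limma, against 0% of all genes and of all probe sets. *Tet1* and *Mbd1* had an unadjusted p under 0.05, 2 of 9 genes against 19.8% of all genes. *Tet1* differed by -1.31 ± 0.26 (adjusted p = 0.112), *Mbd1* by 0.85 ± 0.26 (adjusted p = 0.161) and *Tet3* by -0.64 ± 0.34 (adjusted p = 0.342). Each of these differences pointed back towards its E18 level, and it uses the same P3 arrays as the comparison of P3 with E18. Without P3 replicate 1 the 3 differences were -1.43, 1.12 and -1.13. They then rest on P3 replicate 2 alone, the array with the highest 18S signal. The arrays of P3 and P6 did not overlap for 1 gene higher and 3 lower, as for 43.7% of all genes, nor for 10 of 26 probe sets, as for 40.3% of all.

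Between E18 and P6, 2 of 9 genes were called, *Uhrf1* and *Mbd2*, both lower. This stands against 31.7% of all genes called, 14.8% higher and 16.9% lower. Over probe sets the count was 3 of 26, all lower, against 21.1% of all probe sets (8.76% higher, 12.4% lower): both of *Uhrf1* and 1 of *Dnmt3b*. The arrays did not overlap for 7 of the 9 genes, as for 80.8% of all genes, and for 19 of 26 probe sets, as for 75.7% of all. At an unadjusted p under 0.05 it was 3 of 9 genes, against 42.7%. The comparisons with E18 share the E18 arrays.

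The change in the second interval differed from that in the first for 3 of 9 genes, against 22% of all genes (2 higher against 16.7%, 1 lower against 5.28%). At an unadjusted p under 0.05 it did for 4 of 9, against 40% of all. Over probe sets it was 4 of 26, against 12.1% of all (3 higher against 8.87%, 1 lower against 3.26%). *Uhrf1* was at 2.98 ± 0.31 (limma adjusted p = 0.00138), since its fall came before P3. *Tet1* was at -2.58 ± 0.44 (adjusted p = 0.00969) on its chosen probe set, and *Mbd1* at 1.80 ± 0.46 (adjusted p = 0.0329). This contrast counts each P3 array against both intervals. *Tet1* lost the call with _s_at and _x_at probe sets passed over (-0.45, adjusted p = 0.725) and with the mean of its probe sets (-0.89, adjusted p = 0.0991). *Mbd1* kept it in 6 of 17 alternatives and lost it without E18 replicate 1 or 2 (0.127 and 0.148), P3 replicate 2 (1.25, 0.0585) or P6 replicate 1 or 2 (0.0731 and 0.0712).

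Other genes of the pathway were taken from 6 lists of 63 genes, of which 51 were tested, 3 were dim and 9 had no single-symbol probe set, *Tdg* among them. Between E18 and P3, 26 of the 51 fell and 1 rose, against 25.7% of all genes lower and 15.5% higher, with a median of -0.86 against -0.13 for all genes. With quantile normalization 19 fell and 5 rose. Between E18 and P6, 23 fell and 2 rose, against 16.9% of all genes lower and 14.8% higher, with a median of -0.63 against 0.08. Without E18 replicate 1 or 2 these counts became 17 lower and 1 higher at P3, and 14 lower and 0 higher at P6. The share of all genes called was then also smaller, between 17.1% and 18.8%. The falls stood beside the lower proliferation, progenitor, astrocyte and microglia signal given above, whose part in them was not tested.

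**Figure D4:**
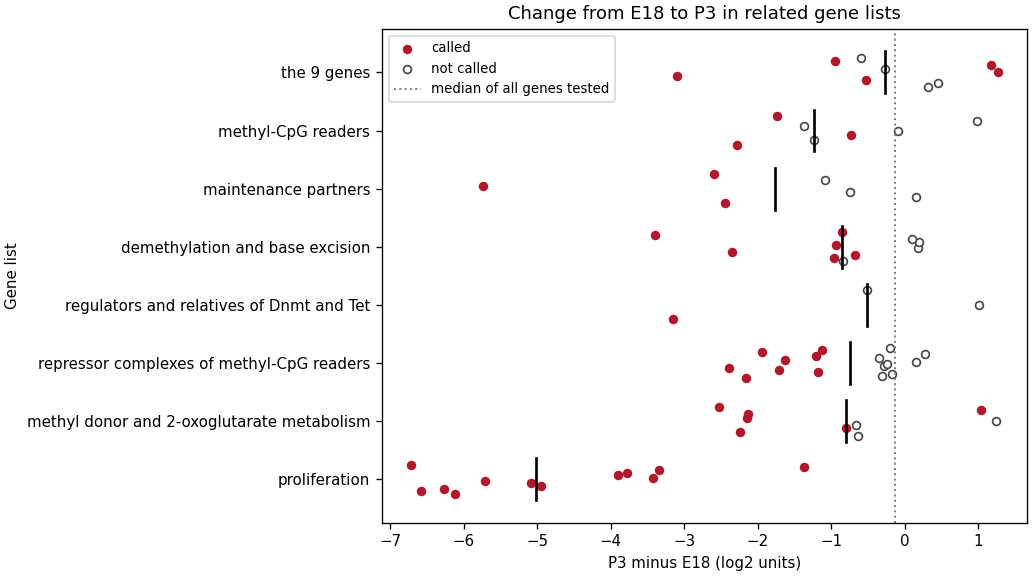
Change from E18 to P3 (log2 units, horizontal axis) of each gene tested, by list (vertical axis), with red points called by limma, open points not called and black bars at list medians. The dotted line is the median of all genes tested, -0.13. The 9 genes lie on both sides of it, while all proliferation genes lie below -1.

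Among the partners of maintenance methylation, 3 of 6 fell to P3 and 0 rose, where 25.7% of all genes fell and 15.5% rose. *Cdca7*, which activates the remodeller HELLS, stood at 10.49 and 10.53 at E18 and between 4.57 and 5.31 afterwards, and fell by 5.74 ± 0.24 log2 units to P3 (limma adjusted p = 1.06e-05). The ligase gene *Lig1* changed by -2.59 ± 0.25 (adjusted p = 0.000312) and the sliding clamp gene *Pcna* by -2.44 ± 0.31 (adjusted p = 0.00118). *Hells* differed by -0.74 ± 0.26 at P3 (adjusted p = 0.0537) and fell by 1.21 log2 units by P6 (adjusted p = 0.0103). *Usp7*, a deubiquitinase that binds both DNMT1 and UHRF1, differed by 0.15 ± 0.24 (adjusted p = 0.618). *Dmap1*, which binds DNMT1, differed by -1.08 ± 0.49 (adjusted p = 0.113), with P3 replicates at 9.44 and 7.80.

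Among the other readers, 3 of 7 fell to P3 and 0 rose, beside the same 25.7% and 15.5% of all genes. *Uhrf2*, the paralogue of *Uhrf1*, read 10.43 and 10.47 at E18 and between 8.51 and 8.95 afterwards, a change of -1.74 ± 0.27 (limma adjusted p = 0.00243). *Mbd3*, the NuRD subunit found in place of MBD2, fell by 2.28 log2 units to P3 (adjusted p = 0.00431) and differed from E18 by -0.78 ± 0.40 at P6 (adjusted p = 0.176). *Mbd6* fell by 0.73 (adjusted p = 0.0333), and the glycosylase gene *Mbd4* fell by 1.54 by P6 (adjusted p = 0.0283). *Zbtb38* differed by 0.99 ± 0.36 at P3 and was not called (adjusted p = 0.0642).

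Of the repressor complexes that readers recruit, 8 of 16 genes fell to P3 and 0 rose (25.7% and 15.5% of all genes). The deacetylase gene *Hdac1* changed by -2.15 ± 0.30 and the NuRD subunit gene *Mta2* by -2.39 ± 0.26 (limma adjusted p = 0.00156 and 0.000577), while *Hdac2* had values of 11.73 and 11.79 at E18 and between 11.01 and 11.59 later. The co-repressor gene *Sin3a* fell by 1.94 and *Mta1*, a relative of *Mta2*, by 1.70 log2 units (adjusted p = 0.000828 and 0.0023). The NuRD remodeller genes took different courses to P6. *Chd4* fell by 2.48 log2 units (adjusted p = 0.00147), and *Chd3* rose by 0.83 ± 0.24 (adjusted p = 0.0365), with 10.97 and 11.01 at E18 and 11.76 and 11.87 at P6. *Setdb1*, the partner of MBD1, changed by -1.20 ± 0.26 to P3 (adjusted p = 0.00986).

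In base excision repair and demethylation, 6 of 10 genes fell to P3 and 0 rose (25.7% and 15.5% of all genes). *Gadd45g*, a stress-response gene also expressed in newborn neurons, changed by -3.39 ± 0.45 (limma adjusted p = 0.00129) and the repair scaffold gene *Xrcc1* by -2.35 ± 0.29 (adjusted p = 0.00104). The DNA ligase gene *Lig3* fell by 0.93 and the glycosylase gene *Neil1* by 0.95 log2 units (adjusted p = 0.013 and 0.0169). Of 9 genes of methyl donor and 2-oxoglutarate metabolism, 5 fell and 1 rose, against those same shares. The isocitrate dehydrogenases, which make the 2-oxoglutarate that TET enzymes use, moved in opposite directions. The cytosolic gene *Idh1* read 11.73 and 11.80 at E18 and between 12.53 and 12.86 later, a rise of 1.04 ± 0.17 (adjusted p = 0.00352). The mitochondrial gene *Idh2* changed by -2.53 ± 0.24 (adjusted p = 0.000278). *Ahcy*, which clears the methyltransferase inhibitor S-adenosylhomocysteine, changed by -2.24 ± 0.30 (adjusted p = 0.00129). The folate enzyme genes *Mthfd1* and *Shmt2* fell by 2.13 and 2.15 log2 units (adjusted p = 0.000775 and 0.00149). *Trdmt1*, a tRNA methyltransferase related in sequence to the DNA methyltransferases, changed by -3.14 ± 0.26 (adjusted p = 0.000156) and was the 1 of 3 genes called in its list. There *Cxxc4* differed by 1.02 ± 0.36 (adjusted p = 0.0588) and *Cxxc5* by -0.51 ± 0.48 (adjusted p = 0.4).

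The genes nearest to each member in their course over the 6 arrays were found by the distance between log2 profiles, each centred on its own mean. For *Uhrf1* these were *Evc* (distance 0.12 log2 units) and *Cenpn* (0.18), and 43 genes lay within 0.5. For *Tet3* they were *Rflna* (0.12) and *Prss22* (0.18), for *Mbd1* *Krba1* (0.10) and *Taf1c* (0.12), and for *Mbd2* *Slf2* (0.11) and *Eml5* (0.14). For *Dnmt3b* they were *Slc25a20* (0.11) and *Per3* (0.14), for *Dnmt3a* *Rnf141* (0.13) and *Rmdn3* (0.16), and for *Tet2* *Hscb* (0.17) and *Tfe3* (0.19). *Dnmt1* had *Sh3bgrl* (0.24) and *Pikfyve* (0.28) nearest, and *Tet1* had *Ovgp1* (0.40) and *Slco5a1* (0.42), with 8 genes within 0.5. Far more genes lay within 0.5 of the other members: 932 for *Dnmt3b*, 549 for *Mbd1*, 509 for *Dnmt3a* and 463 for *Mbd2*. There were 301 for *Tet2*, 140 for *Dnmt1* and 108 for *Tet3*. These are descriptions over 6 arrays that share their stages.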

How the data were processed

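The 6 arrays of the series were used, 2 each of sorted corticothalamic neurons at E18, P3 and P6. The authors deposited log2 values for each probe set, and the submitters' processing notes name RMA; its version was not given in the sources used here. RMA corrects background and normalizes across arrays, so values are relative, and low values understate folds. The number of arrays limits the precision. Gene names came from the platform's annotation table (34945 of 45101 probe sets with 1 symbol, 932 with several and 9160 with none; 34741 of these found by Entrez ID in the RefSeq table). Each gene took its probe set with the highest mean, and the lowest 25% of genes were left out, which kept 13645. A limma 3.58.1 model (R 4.3.3) took the 3 stages over the 6 arrays, with an intensity trend and 3 residual degrees of freedom. A second fit took every single-symbol probe set, unfiltered. Tests were 2-sided, with Benjamini-Hochberg adjustment within each contrast, and the fit was checked on simulated data. Every probe set of the members was tested and plotted. Nearest genes were the 2 of smallest distance, and of each related list the 4 genes of smallest p between E18 and P3 were named, with some of those of smallest p in other contrasts, plus *Hells*, *Tdg* and *Uhrf2* always; 1 further gene listed to be always named is not reported here. *Hdac2*, *Setdb1*, *Usp7*, *Idh1* and the markers *Mki67*, *Sox2* and *Ntsr1* fall outside this rule and were chosen after their values were seen. The members and lists were chosen with earlier results of these data known. Alternatives covered normalization, filters, probe set choice, left-out arrays, a replicate block, 18S and hybridization control levels as covariates, and the variance model. No coordinates other than those of the RefSeq windows on GRCm38.p6 were used.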

Additional observations from a re-analysis of the deposited data

Results flagged for a closer look

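For 3 of the 9 genes the change from P3 to P6 differed from the change from E18 to P3, by limma's test of that difference over all genes. *Uhrf1* stood at 2.98 log2 units, because its drop between E18 and P3 was not followed by another. *Tet1* stood at -2.58 on the brightest of its 4 probe sets, and at -0.45 with probe sets ending in _s_at or _x_at passed over. *Mbd1* stood at 1.80, or 1.25 without P3 replicate 2, the array with the highest 18S signal. Each of these values uses the P3 arrays in both intervals.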

How the results depend on the processing

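*Uhrf1* kept its call against E18 in 17 of 17 alternatives at each postnatal stage. The other called genes each lost the call in some. The share of all genes called also moved with the setting, so a change in the counts below need not be particular to these genes. Over all alternatives for single genes, 540 values kept their direction and side of the threshold, 53 lost a call, 10 gained one and 28 turned sign. Between E18 and P3, 5 genes were called. The number was 1 with the E18 arrays averaged, 2 with the hybridization control level or the 18S level as a covariate, and 3 with the lowest 50% of genes left out (7 of the 9 tested), with the mean of all probe sets, or with only the stages compared. Leaving out 1 array gave 1 to 6. Over probe sets, where 6 were called, it was 2 with E18 averaged, 3 with the control level and 2 to 8 with 1 array left out. Between P3 and P6, leaving out 1 array gave 0 to 3 genes and 0 to 4 probe sets. Calls between P3 and P6 came only without P3 replicate 1, where P3 rests on P3 replicate 2 alone. The shares of all genes and of all probe sets called also rose there from 0%, so these calls need not be particular to the 9 genes. Between E18 and P6, 2 genes were called (31.7% of all genes). With quantile normalization (35%) or the control level (18.2%) it was 1, *Uhrf1*. With the 50% filter (35.4%), which left *Uhrf1* untested, it was 1, *Mbd2*. The number was also smaller with E18 averaged and moved both ways with 1 array left out, as did the share of all genes. Over probe sets, where 3 were called (21.1% of all), it was 5 with only the stages compared (31.4%) and 6 with array weights (33.9%). For the difference between intervals, where 3 genes were called (22% of all genes), it was 1 with the mean of all probe sets (21%). With 1 array left out it moved both ways, as did the share of all genes. Quantile normalization moved the median of all genes in that contrast from 0.35 to -0.02.

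Equal replicate numbers did not pair the arrays: deviations of same-numbered arrays correlated at -0.20 (E18 and P3), 0.04 (E18 and P6) and -0.14 (P3 and P6). With a replicate block, 4 genes were called at P3 (38.1% of all genes) and 1 at P6 (29.7%) against E18. For probe sets it was 3 at P3 (23.2% of all probe sets).

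These differences turned sign, none of them called in that setting by limma. With _s_at and _x_at passed over, *Dnmt1* was at -0.72 (P3 minus E18), 0.13 (P6 minus P3) and 0.85 (between intervals), and *Tet1* at -0.57 (P3 minus E18). With the control level, *Dnmt1* was at -0.11 (P3 minus E18), *Dnmt3a* at 0.0236 (P6 minus P3), *Tet1* at 0.312 (P6 minus E18) and *Tet2* at -0.0183 (between intervals). With the 18S level, *Tet1* was at 0.0438 and *Mbd1* at 0.00675 (both P6 minus E18). With quantile normalization, *Tet1* was at 0.0475 and *Mbd1* at 0.0723 (both P6 minus E18), and *Tet2* at 0.13 (P3 minus E18) and -0.48 (between intervals). With the mean of all probe sets, *Dnmt3a* was at 0.0564 and *Dnmt3b* at -0.40 (both P6 minus P3), and *Tet2* at -0.36 (between intervals). With 1 array left out, the range of P6 minus P3 was -0.321 to 0.288 for *Dnmt3a*, -0.0355 to 0.197 for *Dnmt3b*, -0.244 to 0.000897 for *Uhrf1*, -0.393 to 0.167 for *Tet2* and -0.388 to 0.00294 for *Mbd2*. That of P6 minus E18 was -0.529 to 0.0933 for *Dnmt1* and -0.319 to 0.23 for *Tet1*, that of P3 minus E18 was -0.545 to 0.0152 for *Tet2*, and between intervals it was -1.08 to 0.142 for *Dnmt3a* and -0.408 to 0.712 for *Tet2*. Why these values moved was not tested. An alternative chosen after seeing the data left out both arrays of high 18S level, where *Uhrf1* was at -2.97 and -3.11 from E18; only the E18 arrays then give a spread, so it has no test.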
